A study of Mus musculus with 12 samples.

Results

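The B cell receptor is a membrane-bound immunoglobulin that signals through the Cd79a and Cd79b chains. The genes described here are those 2 signalling chains, Cd81, a tetraspanin of the co-receptor complex, and 6 proteins that act just inside the membrane: Syk, Btk, Blnk, Plcg2, Pik3ap1 and Vav1. They were chosen by gene name for their role, and they are 9 of the 36175 genes in the deposited table. Expression was measured by RNA-seq of B cells purified from Peyer's patches (PP), the lymphoid follicles of the intestinal wall, of 12 mice. All were male wild-type C57BL/6JHsd mice of 10 to 12 weeks according to the methods, with no transgene, and the cells were taken 18 h after surgery. Sham controls (n = 6) had the operation only, and stroke mice (n = 6) had the middle cerebral artery blocked for 1 h and reopened, which the labels call brain injury. B cells were enriched with magnetic beads, and the methods state that the first step left small amounts of epithelial and endothelial cells, that beads against CD45, a marker of all leukocytes, followed, and that the result was almost pure B cells. These are bulk samples, so fewer cells of a type and less RNA per cell cannot be told apart.

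When antigen binds the receptor, Src family kinases phosphorylate tyrosine motifs in the tails of CD79A and CD79B. SYK docks on these motifs and phosphorylates the adaptor BLNK, which brings BTK and PLCG2 together at the membrane, and PLCG2 then releases the messengers that start calcium and protein kinase C signalling. The co-receptor complex, which holds CD81 and CR2, and the adaptor PIK3AP1 (BCAP) recruit PI3-kinase, while VAV1 activates Rac GTPases. In PP, B cells are exposed to gut antigens, and the receptor takes part in their entry into germinal centres and the IgA response.

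The table gives 1 normalized expression signal per gene and mouse, labelled as normalized TPM, with no read counts, so the depth behind each value is unknown. Genes with a signal above 0 numbered 20626 to 21796 in sham controls and 20633 to 30060 in stroke mice, with the most in stroke 6. The column totals ran from 559570 to 1404340 in sham controls and from 804983 to 1020759 in stroke mice. Sham 6 had the lowest total, and it also had the lowest summed signal of 10 B cell markers, 5097, followed by stroke 5 with 5305. Among all mice, that sum ran from 5097 to 12380 in sham controls and from 5305 to 9781 in stroke mice, and every one of the 10 markers was above 0 in every mouse. Of the 10, 7 were negative, with a median log2 difference of -0.21. At an unadjusted p under 0.05 (limma), 2 were called lower, Cr2, described below, and Fcer2a, beside 1.69% of all genes. With equal column totals 6 were negative and 0 were called, with a median of -0.08 beside 0.12 over all genes. After quantile normalization 1 was called lower. The sum had an exact permutation p of 0.268, and its part in the differences of the receptor chains was not tested. The summed signal of 10 T cell markers ran from 96.2 to 174 in sham controls and from 74.3 to 198 in stroke mice. That of 10 epithelial markers ran from 42.9 to 1808 and from 35.4 to 883 (exact permutation p of the sum 0.217). Of these 10, 6 were tested, all negative and 0 called, with a median log2 difference of -1.62. With the replicate block 3 were called lower, beside 3.21% of all genes. The highest epithelial sums were in sham 1 and sham 2, which also had the highest totals and the highest Cd81, and the part of these cells in the differences below was not tested. Of 8 endothelial markers, Pecam1, at 77.05 to 105.3, made up most of the sum. Every other one was at most 5.344, and 4 were under 1 in every mouse. Differences that moved by over 1.5 times without sham 6 or stroke 5 are given below also without them for the genes called, the most abundant gene of each list, the receptor chains, Cd81 and Plcg2.

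In stroke mice, Syk was the one member whose values lay above those of every sham control, with a mean 1.34 times the sham mean. The receptor chains Cd79a and Cd79b, Cd81, Plcg2 and Pik3ap1 had lower means in stroke mice, and Blnk, Btk and Vav1 differed by less than 0.10 on the log2 scale. None of the 9 differences had an adjusted p under 0.05 in limma on log2(signal + 0.5), with Benjamini-Hochberg adjustment over the 12590 genes that had a signal of at least 1 in every mouse. All 9 members passed that filter, and their lowest single value was 35.2. At an unadjusted p under 0.05, 1 of the 9 members was called higher in stroke mice and 0 were called lower, against 4.42% of all genes called higher and 1.69% called lower (6.12% in all, 557 and 213 genes). The percentage of all genes with an adjusted p under 0.05 was 0. For 1 of the 9 members the values of the groups were fully apart, with stroke higher, against 0.349% of all genes with stroke higher, 0.0874% with stroke lower and 0.437% in either direction. Stroke minus sham was negative for 6 members, of which Blnk turned positive with equal column totals, and positive for 3, of which Vav1 turned negative in both alternatives without stroke 6, with a median of -0.17 on the log2 scale, beside a median of 0.01 over all genes. The split of calls depended on the scaling, with 406 genes higher and 316 lower after median-of-ratios scaling, 429 and 265 after quantile normalization, and 341 and 72 with equal column totals, which moved the median of all genes to 0.12.

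**Figure D1:**
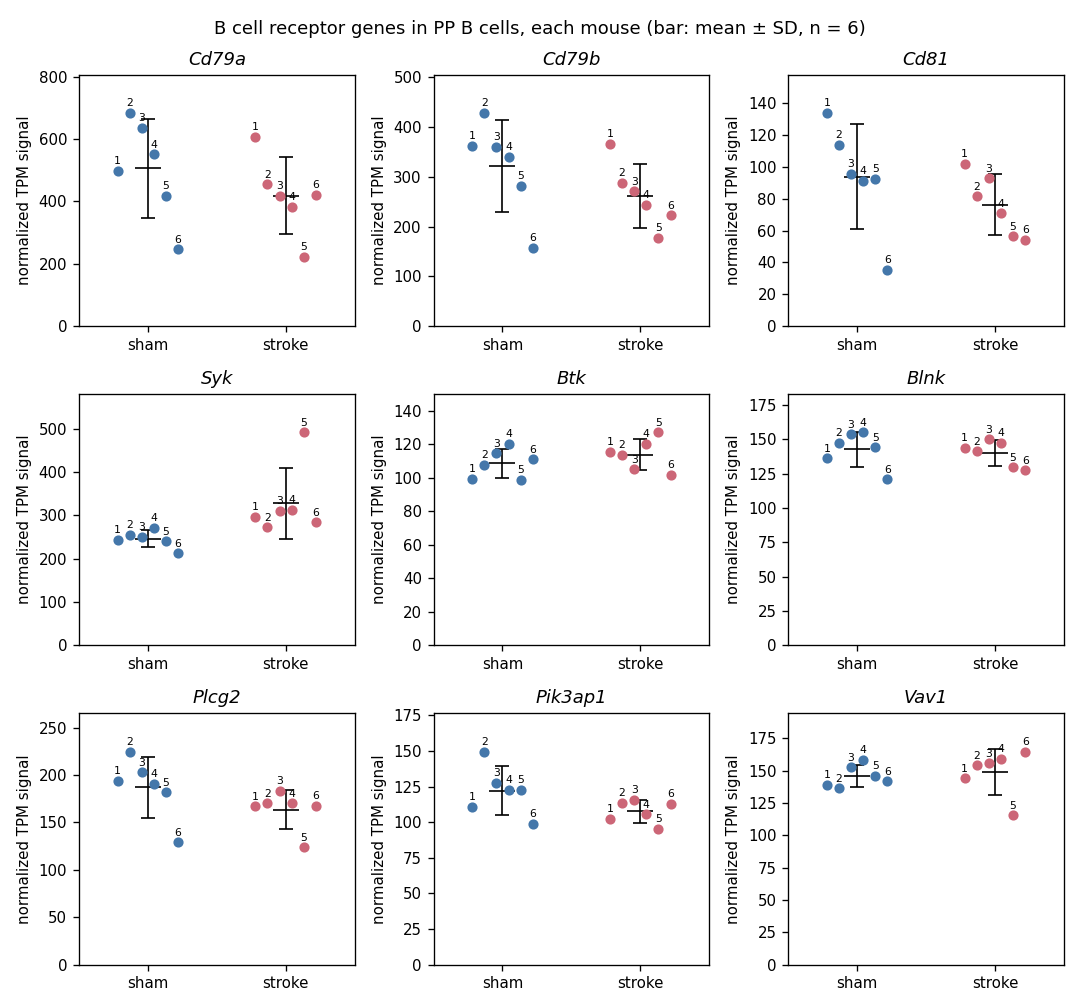
Normalized signal (linear axis from 0) of the 9 genes, each point 1 mouse with its number, and each bar the group mean ± SD (n = 6). The Syk points of stroke mice, from 272.4 to 491.7, lie above the sham points, which end at 271.7, while the points of the other 8 genes overlap between groups.

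Cd79a encodes the alpha signalling chain of the receptor and lies at chr7:24897381-24902197 on the plus strand (GRCm38, GENCODE M21). Its lowest, median and highest signal were 246, 525 and 684 in sham controls and 222, 421 and 607 in stroke mice. Sham 6 and stroke 5 held the lowest value of their groups, and 5 of 6 stroke mice lay within the sham range. The mean was 506 ± 159 (SD, n = 6) in sham controls and 418 ± 124 in stroke mice, a difference of -0.26 on the log2 scale (SE 0.27, 95% interval -0.83 to 0.31), with a limma adjusted p of 0.859. The exact two-sided permutation p was 0.396 over 924 assignments of the mice. When single mice were omitted, the difference ran from -0.45 without sham 6 to -0.09 without stroke 5.

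Cd79b, the beta chain, pairs with CD79A and is needed for the receptor to reach the cell surface. It lies at chr11:106311341-106314762 on the minus strand. In order of lowest, median and highest, its signal was 158, 350 and 428 in sham controls and 178, 257 and 367 in stroke mice, so that all 6 stroke values fell within the sham range. The mean was 321 ± 92.8 in sham controls and 262 ± 64.3 in stroke mice (log2 difference -0.27, SE 0.23, 95% interval -0.77 to 0.24). The limma adjusted p was 0.839 and the exact permutation p was 0.303. Without sham 6, the difference was -0.46, with an unadjusted p of 0.0216 and a limma adjusted p of 0.267, and without stroke 5 it was -0.16, with an unadjusted p of 0.497.

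The 2 chains moved together from mouse to mouse. Over the 12 mice, the log2 signals of Cd79a and Cd79b had a Pearson r of 0.955 (permutation p = 2e-05, adjusted over 10 relations 0.0002) and a Spearman rho of 0.909 (permutation p = 0.00013, adjusted 0.00125). Without sham 6 and stroke 5, r was 0.909, and within groups it was 0.975 in sham controls and 0.932 in stroke mice. The ratio of Cd79a to Cd79b within a mouse was 1.57 ± 0.131 in sham controls (1.38 to 1.77) and 1.58 ± 0.208 in stroke mice (1.25 to 1.90), and 4 of 6 stroke mice fell within the sham range. The ratio of the chains thus varied little beside the chains themselves, whose highest value was 3.07 times the lowest for Cd79a and 2.71 times for Cd79b.

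Cd81, the tetraspanin of the co-receptor complex, lies at chr7:143052739-143067934 on the plus strand. The lowest, median and highest signal of Cd81 were 35.2, 94.1 and 134 in sham controls and 54.4, 76.2 and 101.9 in stroke mice. The sham values ended at the bottom with sham 6, and all 6 stroke values lay within the sham range. The means were 93.7 ± 33.0 and 76.3 ± 19.3, a log2 difference of -0.23 (SE 0.28, 95% interval -0.83 to 0.38) with a limma adjusted p of 0.877 and an exact permutation p of 0.502. Without sham 6, the difference was -0.49, with an unadjusted p of 0.0205 and a limma adjusted p of 0.266. It was -0.10 without sham 1, with an unadjusted p of 0.722, and -0.15 without stroke 5.

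The receptor genes also followed the column total. Over the 12 mice, Pearson r with the log2 column total was 0.899 for Cd81 (permutation p = 4e-05, adjusted 0.0002), with a Spearman rho of 0.888 (p = 0.00025, adjusted 0.00125). For Cd79b, r was 0.825 (permutation p = 0.00071, adjusted 0.00237) and rho was 0.783 (p = 0.00393, adjusted 0.0131). For Cd79a, r was 0.699 (permutation p = 0.0117, adjusted 0.0233) and rho was 0.671 (p = 0.0207, adjusted 0.0414). For Plcg2, r was 0.759 (permutation p = 0.00498, adjusted 0.0125) and rho was 0.671 (p = 0.0201, adjusted 0.0414). These 4 relations held their sign in each group, with r from 0.777 to 0.936 in sham controls and from 0.514 to 0.780 in stroke mice, and were between 0.645 and 0.736 without sham 1 and sham 6. The other 5 members had an adjusted permutation p of at least 0.0815 for r, with r = 0.582 for Pik3ap1, 0.472 for Blnk, -0.05 for Syk, -0.09 for Vav1 and -0.39 for Btk. For 2 of these the sign differed between groups, with r = 0.614 in sham controls and -0.37 in stroke mice for Syk, and -0.34 and 0.212 for Vav1. When each column was scaled to the same total, the group differences of these 4 genes were -0.14 for Cd79a, -0.14 for Cd79b, -0.10 for Cd81 and -0.06 for Plcg2, beside a median of 0.12 over all genes. They had been -0.26, -0.27, -0.23 and -0.18 as deposited, beside a median of 0.01. Such scaling moves the log2 difference of nearly every gene by about the same amount, whether or not the gene follows the total. The part of the totals in the group differences was not tested.

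Syk encodes the tyrosine kinase that carries the signal from the CD79 chains inward, and it lies at chr13:52583173-52648792 on the plus strand. In sham controls its signal was 243.7, 254.6, 250.9, 271.7, 240.0 and 212.4, from sham 1 to sham 6. In stroke mice it was 296.5, 272.4, 310.9, 313.0, 491.7 and 284.3, from stroke 1 to stroke 6. Each stroke mouse thus lay above all sham controls, by as little as 272.4 in stroke 2 against 271.7 in sham 4, and stroke 5 lay far above the next highest stroke mouse. The mean was 246 ± 19.6 in sham controls and 328 ± 81.6 in stroke mice, a log2 difference of 0.39 (SE 0.14, 95% interval 0.08 to 0.70). The unadjusted limma p was 0.0168 and the adjusted p was 0.749, while the exact permutation p was 0.0022, the smallest that 924 assignments allow. This is 1 of 9 member tests.

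The order of Syk in the 2 groups depended on the scaling, but its direction did not. After median-of-ratios scaling, 4 of the 6 stroke mice were above the highest sham control, after quantile normalization 3, and with equal column totals 2. Its unadjusted limma p was under 0.05 in each of the 23 alternatives tried, and its adjusted p in them ran from 0.285 to 0.991. The log2 difference in them ran from 0.23 to 0.52, with the lowest value when sham 6 and stroke 5 were both left out. Without stroke 5 alone it was 0.27, and without sham 6 alone 0.35. SYK also works in other blood cells, such as macrophages and neutrophils, most of which the B cell kit would remove. The summed signal of 10 macrophage and dendritic markers was 52.5 to 379 in sham controls and 57.7 to 209 in stroke mice (exact permutation p = 0.652). That of 10 neutrophil markers was 5.51 to 7.85 and 5.74 to 11.1 (exact permutation p = 0.143), with 4 of the 10 under 1 in every mouse. S100a8, a defining marker, reached 0.524 and S100a9 1.445, both in stroke 1. Cxcr2, the 1 neutrophil marker tested, ran from 2.35 to 4.33 in sham controls and from 3.07 to 5.02 in stroke mice. Its log2 difference was 0.23 and not called (limma). Without sham 6 and stroke 5 it was 0.36 and called higher, as were 6.39% of all genes. Of the 9 not tested, 6 had a higher mean in stroke mice and 3 a lower one. The part of macrophages and neutrophils in the difference of Syk was not tested.

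**Figure D2:**
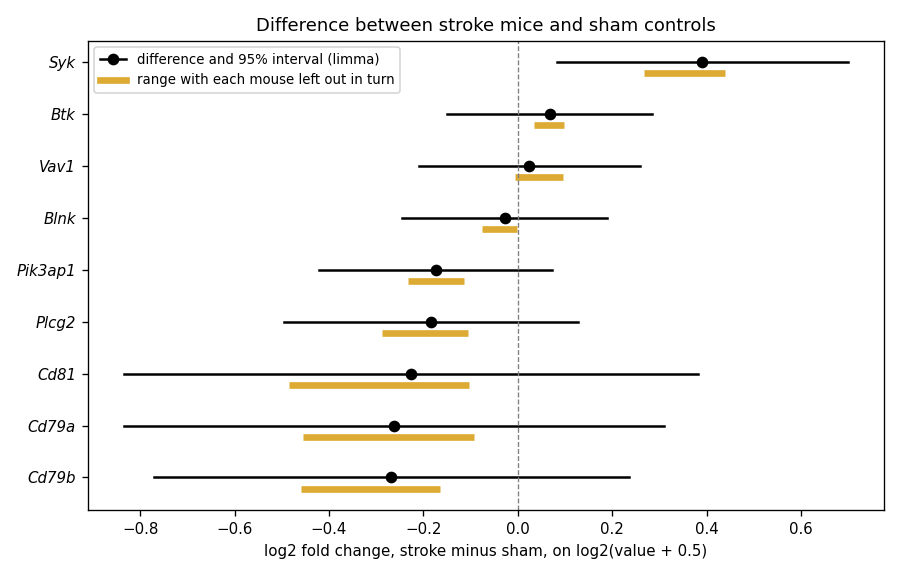
Log2 difference of each of the 9 genes, stroke minus sham, with its 95% interval from limma in black (n = 6 mice per group) and, below it, the range when single mice were omitted in yellow. The interval of Syk, from 0.08 to 0.70, lies above 0, and those of the other 8 genes include 0.

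Btk, a Tec family kinase that activates PLCG2, lies on chromosome X at 134542336-134583570, minus strand. Its lowest, median and highest signal were 98.6, 109 and 120.3 in sham controls and 101.6, 114 and 127 in stroke mice, and 4 of 6 stroke mice lay within the sham range. The means were 109 ± 8.51 and 114 ± 9.44, a log2 difference of 0.07 (SE 0.10, 95% interval -0.15 to 0.28), with a limma adjusted p of 0.897 and an exact permutation p of 0.333. Blnk, the adaptor that SYK phosphorylates, lies at chr19:40928927-40994535 on the minus strand. Its lowest, median and highest signal were 121, 146 and 155 in sham controls and 127, 143 and 149.8 in stroke mice, all 6 of the latter within the sham range. The means were 143 ± 12.8 and 139.8 ± 9.32, a log2 difference of -0.03 (SE 0.10, 95% interval -0.24 to 0.19), with a limma adjusted p of 0.959 and an exact permutation p of 0.684. Blnk and Btk were the steadiest of the 9 genes, with a coefficient of variation of 7.62% and 8.09% over all mice.

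Plcg2, the phospholipase at the end of this chain, lies at chr8:117498291-117635142 on the plus strand. The lowest, median and highest signal of Plcg2 were 129, 192 and 225 in sham controls and 124, 169 and 183 in stroke mice. All 6 stroke mice were below the sham mean, yet 5 of them were within the sham range, since sham 6 was low. The means were 187 ± 32.0 and 164 ± 20.5, a log2 difference of -0.18 (SE 0.14, 95% interval -0.50 to 0.13), with a limma adjusted p of 0.827 and an exact permutation p of 0.225. Without sham 6, it was -0.29, with an unadjusted p of 0.0325 and a limma adjusted p of 0.284, and without stroke 5 it was -0.11, with an unadjusted p of 0.442.

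Pik3ap1, which links the receptor to PI3-kinase, lies at chr19:41272377-41385102 on the minus strand. For Pik3ap1 the lowest, median and highest signal were 99.0, 123 and 149.6 in sham controls and 95.5, 109 and 116 in stroke mice. Again all 6 stroke mice were below the sham mean and 5 were within the sham range. The means were 122 ± 17.0 and 108 ± 7.90, a log2 difference of -0.17 (SE 0.11, 95% interval -0.42 to 0.07), with a limma adjusted p of 0.798 and an exact permutation p of 0.0866. When single mice were omitted, the difference of Pik3ap1 ran from -0.23 to -0.11. Vav1, a guanine nucleotide exchange factor for Rac, lies at chr17:57279100-57328031 on the plus strand. Its lowest, median and highest signal were 136, 144 and 158 in sham controls and 115, 155 and 165 in stroke mice, with stroke 5 lowest, below all sham controls, and 2 stroke mice above all of them. The means were 146 ± 8.49 and 149 ± 17.7, a log2 difference of 0.02 (SE 0.11, 95% interval -0.21 to 0.26), with a limma adjusted p of 0.966 and an exact permutation p of 0.818.

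Without sham 6, 3 members, Cd79b, Cd81 and Plcg2, had an unadjusted p under 0.05 with stroke lower, when 9.18% of all genes did so, and Syk remained higher. The lower values of the receptor genes thus stood against a wide background of lower genes once that mouse was absent, and 0 of the 9 members had an adjusted p under 0.05 there (limma). With sham 6 and stroke 5 both left out, the same 3 genes were called lower, at -0.36 for Cd79b, -0.41 for Cd81 and -0.21 for Plcg2, beside 6.4% of all genes.

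The 9 genes differed in level, and the deposited signal, labelled as TPM and so taken as per length, lets genes be set side by side. Cd79a had the highest mean signal over the 12 mice, 462, and it was above Cd79b, at 291, in all 12 mice. Cd79b and Syk, at 287, did not differ beyond their spread over all mice, but their order turned between groups, with Cd79b higher in 5 of 6 sham controls and in 2 of 6 stroke mice. Syk was above Plcg2, at 175, in all 12 mice, and Plcg2 was above Vav1, at 147, in 11. Vav1 was higher than Blnk, at 141, in 9 mice, a mean log2 ratio of 0.06 ± 0.14 that is within its spread. Blnk was above Pik3ap1, at 115, in 11 mice, and Pik3ap1 and Btk, at 111, were not separated, with Pik3ap1 higher in 8. Cd81 had the lowest mean, 85.0, with Btk above it in 10 of 12 mice and a mean log2 ratio of 0.46 ± 0.57. In 4 pairs of neighbours, Cd79b and Syk, Vav1 and Blnk, Pik3ap1 and Btk, and Btk and Cd81, the mean log2 ratio was smaller than its SD, so their order is within the spread.

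The 3 surface proteins varied most. Over all mice, the coefficient of variation was 32.1% for Cd81, 31.0% for Cd79a and 28.3% for Cd79b. It was 24.8% for Syk, 16.2% for Plcg2, 12.9% for Pik3ap1 and 9.06% for Vav1. For Syk, it was 8.0% within sham controls and 24.9% within stroke mice, the latter with stroke 5 among them. Of the 36 pairs of members, 13 had a Pearson r above 0.7 over the 12 mice and 13 had a negative r, all of these with Syk or Btk, the lowest being -0.46 for Syk and Vav1. These correlations are descriptions, since the points share the column totals. By the same measure, the 5 genes most like the mean z-score of the members were Ddx21 (r = 0.959), Cdk19 (0.957), Hvcn1 (0.954), Arf3 (0.951) and Them6 (0.950).

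**Figure D3:**
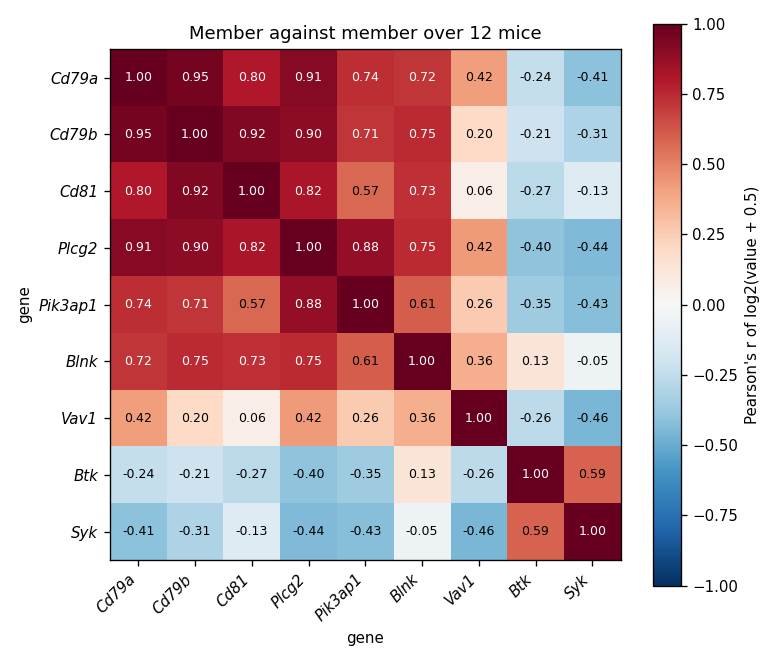
Pearson r of the log2 signal over the 12 mice for each pair of the 9 genes. Cd79a and Cd79b share the highest r, 0.955, and every negative r involves Syk or Btk.

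Because each mouse has its own total, ratios between members within a mouse were also computed, for all 36 pairs and after the members' values had been seen, so they are descriptions without a test. Values were fully apart between groups for 2 of the 36 ratios, beside 0.372% of the ratios between all tested genes. Both had Syk above, which was already fully apart alone, so the count largely restates that. Over every other tested gene, the ratio of Syk was fully apart with stroke higher for 5.09% and with stroke lower for 0.00794%. Syk relative to Blnk, its substrate, was 1.72 ± 0.0601 in sham controls, from 1.64 to 1.79, and 2.37 ± 0.704 in stroke mice, from 1.93 to 3.79. Syk relative to Pik3ap1 was 2.03 ± 0.196, from 1.70 to 2.21, and 3.10 ± 1.03, from 2.40 to 5.15. In both ratios stroke 5 was highest, and the other 5 stroke mice were still above all sham controls. A ratio within a mouse does not change when its column is multiplied by a factor, but it can still vary with the column total where the genes do so unequally, as with Syk over Cd81, at 1.82 in sham 1, the highest total, and 6.04 in sham 6, the lowest. Relative to Btk and to Plcg2, Syk was above all sham controls in 5 of 6 stroke mice, and relative to Vav1 in 4. Relative to Cd79a, Cd79b or Cd81, it was so in 1 of 6 stroke mice each.

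**Figure D4:**
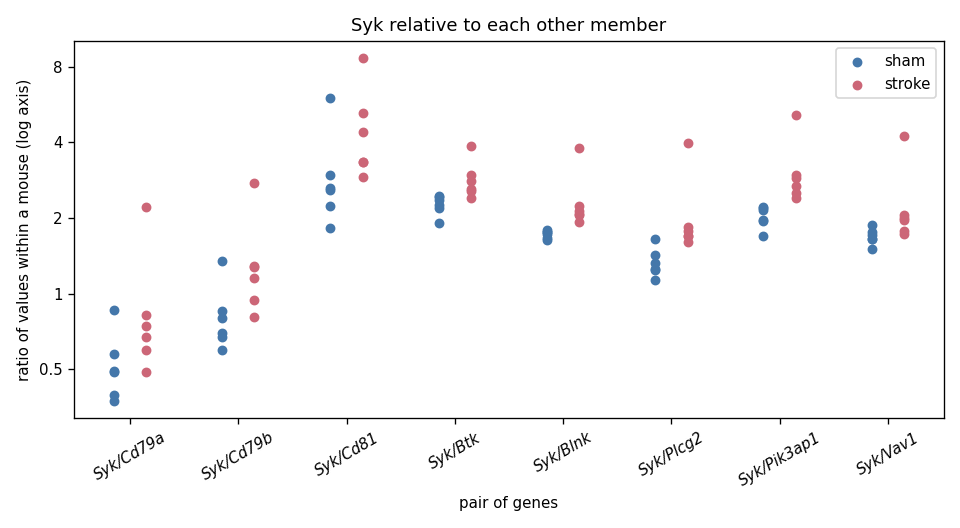
Signal of Syk divided by that of another member in the same mouse, on a log axis, each point 1 mouse. For Blnk and Pik3ap1 the groups do not overlap, while for Cd79a, Cd79b and Cd81 only stroke 5 lies above the sham range.

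The DNA just before the start sites is shown for 4 members, Cd79a as a receptor chain, Syk as the gene with the clearest difference, Pik3ap1 as a denominator of the ratios above and Vav1 as a gene that did not separate. RefSeq (GRCm38.p6) held an upstream window of 250 bases for 8 of the 9 members, with 2 starts for Syk, and Cd79b had no entry. Bases inside an exon that GENCODE M21 gives for the same gene were left out, which removed 116 bases for Cd79a, 11 for Cd81, 29 for the second start of Syk, and the whole windows of Blnk and of the first start of Syk. The sequences are chr7:24897247-24897380 (plus strand), chr13:52596632-52596852 (plus), chr19:41385103-41385352 (minus) and chr17:57278850-57279099 (plus), 5′ to 3′, and capitals mark matches to the motifs CCCNNGGG and GGAAGT.
Cd79a: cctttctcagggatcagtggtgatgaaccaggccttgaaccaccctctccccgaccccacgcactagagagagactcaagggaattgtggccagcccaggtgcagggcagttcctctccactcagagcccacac
Syk: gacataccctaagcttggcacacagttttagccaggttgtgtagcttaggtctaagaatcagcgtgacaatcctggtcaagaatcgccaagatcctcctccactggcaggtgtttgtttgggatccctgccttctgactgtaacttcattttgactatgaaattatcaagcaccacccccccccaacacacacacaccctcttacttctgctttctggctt
Pik3ap1: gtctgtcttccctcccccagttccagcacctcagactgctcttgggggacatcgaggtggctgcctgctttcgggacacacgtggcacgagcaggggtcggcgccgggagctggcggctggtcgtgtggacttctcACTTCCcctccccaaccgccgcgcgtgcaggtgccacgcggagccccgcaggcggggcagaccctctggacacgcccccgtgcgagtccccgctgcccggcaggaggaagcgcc
Vav1: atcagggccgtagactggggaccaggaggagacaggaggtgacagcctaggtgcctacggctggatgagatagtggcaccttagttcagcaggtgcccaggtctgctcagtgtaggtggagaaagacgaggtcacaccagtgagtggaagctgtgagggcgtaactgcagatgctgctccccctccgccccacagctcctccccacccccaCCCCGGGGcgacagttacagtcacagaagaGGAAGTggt

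The full 250-base windows were searched on both strands for CCCNNGGG, a core that Ebf factors bind, GGAAGT, a core that Ets factors bind, ATGCAAAT, the octamer, and TATAAA, the TATA box, and the letters of the first 2 were shortened after longer forms had been looked at. Among 32851 windows, 11.8% held the Ebf core, 19.7% the Ets core, 1.60% the octamer and 12.4% the TATA box. The Ets core lay in the windows of Cd79a, Blnk, Vav1 and Pik3ap1, in Pik3ap1 on the opposite strand, 114 to 109 bases before the start. Those of Cd79a and Blnk lay in bases left out above as annotated exon, so the stretch printed for Cd79a holds no match. The Ebf core lay in those of Vav1, 39 to 32 bases before the start, and of Cd81. The octamer lay in that of Blnk, also in annotated exon, and the TATA box in none of the members' windows. The longer forms, the Ets core with CC or GA before it and the Ebf core with T before and A after it, were in 2.88%, 2.44% and 0.779% of all windows, and in 0, 1 and 0 members. The GC content of the windows was 71.6% at the first start of Syk and 47.6% at the second, beside a median of 52.4% over all windows. These matches are descriptions of letters.

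The other genes of the pathway were taken as lists by role. Their medians stand beside that of all genes, 0.01, and those of the adaptor, calcium and RAS lists turned positive, at 0.07, 0.04 and 0.06, with equal column totals, where the median of all genes was 0.12 and that of the surface list was -0.03, with 7 of 12 genes negative and 0 called. Among 11 tested genes for surface immunoglobulin, the co-receptor and Src kinases, 9 were negative and 1 was called lower at an unadjusted p under 0.05 (limma), with a median of -0.18. That gene was Cr2, complement receptor 2 of the co-receptor complex, whose lowest, median and highest signal were 212, 257 and 294 in sham controls and 47.1, 171 and 213 in stroke mice. In 5 of 6 stroke mice Cr2 was below all sham controls, and its means were 258 ± 31.9 and 158 ± 57.0 (log2 difference -0.83, limma adjusted p = 0.749, exact permutation p = 0.0043). Without stroke 5, the difference of Cr2 was -0.51, with an unadjusted limma p of 0.00087. The most abundant gene of that list, Igkc, the constant part of the kappa light chain, was at 9187 ± 4464 and 6600 ± 2769 (log2 difference -0.36, limma adjusted p = 0.881). Without sham 6 the difference of Igkc was -0.78, with an unadjusted limma p under 0.05, and without stroke 5 it was -0.11.

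Downstream of the members, the lists held few calls. Of 22 genes for adaptors and PI3-kinase, 15 were negative and 0 were called in either direction at an unadjusted p under 0.05 (limma), with a median of -0.06. Of 13 genes for calcium release and NFAT, 8 were negative and 0 were called, with a median of -0.09. The most abundant genes of these lists were Rac2, a Rac GTPase (492 ± 123 and 432 ± 85.0, log2 difference -0.17), and Ppp3ca, a calcineurin subunit (171 ± 17.5 and 149.9 ± 11.8, log2 difference -0.19). Their limma adjusted p was 0.878 and 0.793, and the exact permutation p was 0.450 and 0.0411. All 6 stroke mice were below the sham mean of Ppp3ca, 5 of them within the sham range. The difference of Rac2 was -0.34 without sham 6 and -0.04 without stroke 5. Of 13 genes for protein kinase C and NF-kB, 9 were negative and 1 was called lower, with a median of -0.16. This was Bcl10, an adaptor that binds MALT1 on the way to NF-kB, at 53.1 ± 7.37 and 43.2 ± 2.49 (log2 difference -0.28, limma adjusted p = 0.791, exact permutation p = 0.0195). All 6 stroke mice were within its sham range, which sham 6 extended down to 38.8. Prkcb, the most abundant of the list, was at 199 ± 31.8 and 167 ± 29.1 (log2 difference -0.26, limma adjusted p = 0.793, and -0.14 without stroke 5). Without sham 6, Prkcb and Ppp3ca, at -0.35 and -0.25, were also under an unadjusted limma p of 0.05. Of 14 genes for RAS and MAP kinases, 10 were negative and 1 was called lower, with a median of -0.06. This was Rasgrp3, the exchange factor that responds to diacylglycerol, at 141 ± 13.9 and 115 ± 12.4 (log2 difference -0.30, limma adjusted p = 0.772, exact permutation p = 0.0108), with 3 of 6 stroke mice below all sham controls.

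The inhibitors had a positive median, 0.17, and it was between 0.15 and 0.29 under the 3 other scalings. The difference from the other lists was not tested. Of 17 tested genes for inhibitory receptors, phosphatases and their partners, 11 were positive and 2 were called higher at an unadjusted p under 0.05 (limma). Ptpn22, a phosphatase that acts on Src family and SYK family kinases, was 19.2, 39.0 and 77.7 at its lowest, median and highest in sham controls and 87.2, 128 and 324 in stroke mice, so that its groups did not overlap. Its means were 43.7 ± 20.8 and 156 ± 89.2 (log2 difference 1.80, limma adjusted p = 0.470, exact permutation p = 0.0022, again the smallest possible). Inpp5d, the lipid phosphatase SHIP1, was at 359 ± 36.3 and 481 ± 163 (log2 difference 0.38, limma adjusted p = 0.791, exact permutation p = 0.0043), with 5 of 6 stroke mice above all sham controls. Its call at an unadjusted p under 0.05 was lost under the 3 other scalings, with differences of 0.35, 0.50 and 0.46 (median-of-ratios, equal totals, quantile), and without stroke 5, where the difference was 0.21. The most abundant inhibitor, Ptpn6 (SHP-1), was at 785 ± 129 and 653 ± 186 (log2 difference -0.32, limma adjusted p = 0.817, and -0.09 without stroke 5). Stroke 5, the mouse with the highest Syk, also had the highest Ptpn22 and Inpp5d and the lowest Ptpn6 and Cr2.

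The induced genes are those whose transcripts rise within hours of receptor signalling. Of 15 listed genes of this kind, 10 had a signal of at least 1 in every mouse and were tested, of which 8 were negative and 2 were called lower at an unadjusted p under 0.05 (limma), with a median of -0.35. Egr3, an immediate early transcription factor, was at 46.8 ± 13.5 in sham controls and 30.03 ± 11.6 in stroke mice (log2 difference -0.68, limma adjusted p = 0.791, exact permutation p = 0.0455), with 4 of 6 stroke mice below all sham controls. Cd83, an activation marker of B cells, was at 169 ± 45.2 and 110.4 ± 40.0 (log2 difference -0.69, limma adjusted p = 0.791, exact permutation p = 0.0498), with stroke 5 at 35.3. Without stroke 5, the difference was -0.39 for Cd83 and -0.46 for Egr3, and neither was called. The 5 genes of the list that were not tested had means over all mice of at most 3.91, and their mean was lower in stroke mice for 3 and higher for 2. In none of the 7 lists did a gene have an adjusted p under 0.05, and at an unadjusted p under 0.05 these lists held 2 genes called higher and 5 called lower of 100 tested, beside 4.42% and 1.69% of all genes. With equal column totals, the unadjusted p of each of the 5 lower genes was above 0.05. Their differences there were -0.70 for Cr2, -0.56 for Cd83, -0.56 for Egr3, -0.16 for Bcl10 and -0.17 for Rasgrp3. This scaling moved all 5 by about the same amount, beside a median of all genes that went from 0.01 to 0.12. Over the 23 alternatives, the call was kept in 23 for Ptpn22, in 22 each for Cr2 and Rasgrp3, in 17 for Egr3, in 16 for Bcl10, in 10 for Cd83 and in 7 for Inpp5d. The summed signal of 8 germinal centre markers, 234 to 516 in sham controls and 237 to 506 in stroke mice, and of 8 plasma cell markers, 331 to 1539 and 419 to 1131, overlapped between groups (exact permutation p = 0.504 and 0.461). Of the germinal centre markers, 5 were positive and 0 were called, with a median of 0.14. With the replicate block 1 was called higher, beside 6.12% of all genes. With equal column totals all 8 were positive, with a median of 0.27 beside 0.12 over all genes. Of 7 plasma cell markers tested, 5 were negative and 0 were called, with a median of -0.26. The part of germinal centre and plasma cells in the differences of the list genes was not tested.

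**Figure D5:**
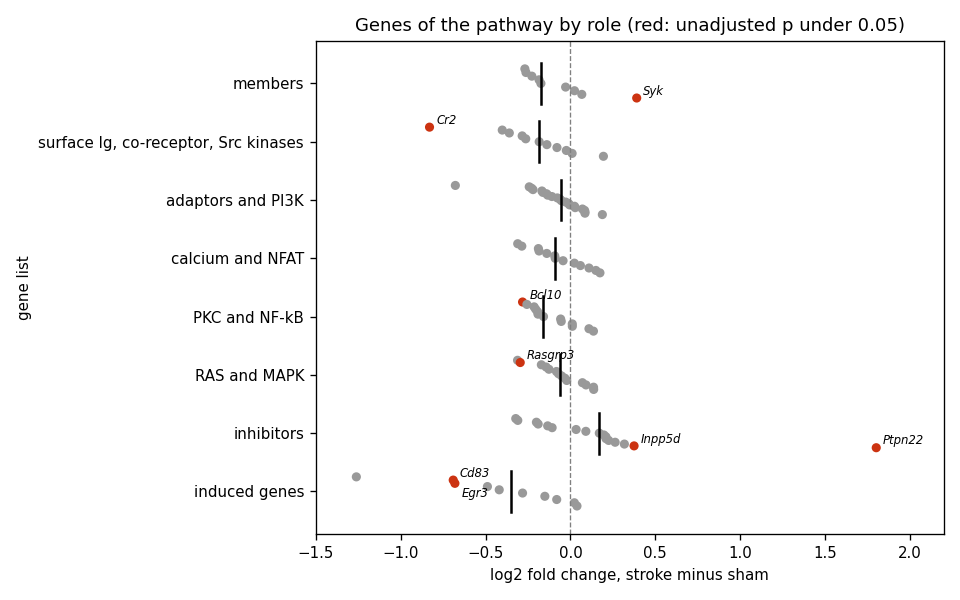
Log2 difference, stroke minus sham, of each tested gene of the 9 members and of the 7 pathway lists, with the bar at the median of each list and an unadjusted limma p under 0.05 in red. Ptpn22, at 1.80, lies furthest to the right, and among these values as deposited the inhibitors have the only median above 0.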

How the data were processed

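RNA-seq libraries of PP B cells from 6 sham controls and 6 stroke mice were analysed. The authors checked reads with FastQC, used Trimmomatic 0.39 for trimming, kallisto 0.48.0 for quantification and sleuth 0.30.0 in R 4.1.2 for tests, on GRCm38. The deposited values are a normalized expression signal per gene, labelled as normalized TPM by the authors. Because the columns do not sum to one total, they were treated as a signal, although the planned design assumed TPM, and because no counts were given, no counting interval could be computed.

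Log2(signal + 0.5) was the scale of the limma 3.58.1 fit (R 4.3.3), which had no block and used genes with a signal of at least 1 in every mouse, with Benjamini-Hochberg adjustment over all of them. A fold change on this scale understates that of low genes. Exact two-sided permutation tests were used for single genes, and relations were tested with 100000 permutations. limma was tested on simulated data first. Alternatives were other pseudocounts, filters and scalings, a block, quality weights and leaving out mice. The labels number the mice separately within each group, and p-values measure the spread between these mice.

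The 9 genes and all lists were chosen with earlier results of these data known. Named in the text were the members, Ptpn22, the genes of each list with an unadjusted p under 0.05 and its most abundant gene, and the 5 genes most like the members. Pecam1, S100a8, S100a9, Cxcr2 and Fcer2a were named after their values were seen. Coordinates came from GENCODE M21, and upstream sequences from RefSeq. Motif letters were settled after the windows had been seen. The number of table columns that matched no sample was 0. Some genes of the lists are not reported here by name.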

Additional observations from a re-analysis of the deposited data

Results flagged for a closer look

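Among 42 groups of 6 mice (21 genes, the 9 members and the 12 list genes named as called, most abundant or Ptpn22, in sham controls and in stroke mice), 7 had a mouse whose gap to the nearest other mouse, divided by the range of the group, was above 0.625, the 95% critical value of Dixon's test for 6 values. Chance marks about 1 in 20 such groups, and the genes are not independent. In 6 of the 7 the mouse was stroke 5. It was high for Syk, at 491.7 against 313.0 in the nearest stroke mouse, and for Inpp5d, at 811.5 against 434.0. It was low for Cr2, at 47.1 against 169, for Ptpn6, at 281 against 695, for Plcg2, at 124 against 167, and for Prkcb, at 112 against 161. The seventh was Bcl10 in sham 6, at 38.8 against 53.0.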

How the results depend on the processing

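Of 207 member differences under 23 alternatives, 204 kept their direction, 3 reversed and 0 had an adjusted p under 0.05. Blnk was at 0.10 with equal column totals, and Vav1 at -0.0068 without stroke 6 and at -0.0143 in the last fit named below. Syk was the 1 member called higher at an unadjusted p under 0.05 throughout. With each mouse left out in turn, genes called higher ran from 395 (without stroke 6) to 936 (without sham 6), genes lower from 146 (without sham 2) to 1162 (without sham 6), genes with an adjusted p under 0.05 from 0 to 1 (without sham 1), members lower from 0 to 3 (without sham 6), members higher stayed at 1, and genes of the 7 lists ran from 1 to 2 higher and from 2 (without sham 3 or 4) to 18 lower (without sham 6). With a filter on the mean, 1 gene had an adjusted p under 0.05 and 1 list gene was higher. With no filter, 1418 genes were higher and 350 lower, over more genes tested. With equal column totals, 341 genes were higher and 72 lower, and 1 list gene was called in each direction. Median-of-ratios scaling and quantile normalization left 1 list gene higher. With quality weights, 866 genes were higher, 703 lower, 2 members lower, and 1 list gene was higher and 15 lower.

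The replicate numbers do not mark a known pairing, and same-numbered mice correlated above 0.1 in 4 of 6 pairs, with a mean of 0.218 against -0.04 for other pairs, while 4 of 12 mice correlated best with their own number. With a replicate block, 770 genes were higher and 404 lower, 0 had an adjusted p under 0.05 (limma), 1 member was higher and 0 lower, and 9 list genes were lower. The next 2 fits were chosen after seeing the data. Without sham 6 and stroke 5, 819 genes, 3 members and 17 list genes were lower. Without both mice numbered 6, and with a replicate block of the other 5 pairs, 1320 genes were lower, 10 had an adjusted p under 0.05, 4 members (Cd79a, Cd79b, Cd81 and Plcg2) were lower, at an adjusted p of at least 0.211, beside 10.4% of all genes, and of the list genes 1 was higher and 19 lower. The cause of these shifts was not tested. Without counts, the precision of low values is unknown.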
